A study of Saccharomyces cerevisiae with 593 samples.

Results

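The response of wild-type Saccharomyces cerevisiae, baker's yeast, to 0.5 M NaCl was followed for 40 min, from its onset through its partial decay. The arrays were chosen by their titles: those that set wild-type cells in NaCl for 5, 10, 20 or 40 min over mock-treated wild-type cells of the same time. They number 16 of the 593 in the series, which asked how stresses and nutrient conditions alter RNA processing in yeast. Each time has 2 replicates, and each replicate was hybridised in both dye orientations, with the salt-treated RNA in Cy5 on 1 array and in Cy3 on the other. The titles call the control mock treated and the characteristics call it untreated. Both sides are the wild type with no mutation named. The name of the strain, its growth medium and whether the replicates came from separate cultures are not given in the sources used here. The p-values therefore measure the spread between array samples, taken over 76 groups of the series, and not a known spread between cultures. Total RNA was copied into cDNA and coupled to the dyes.

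An abrupt rise in NaCl draws water out of a yeast cell and also brings in sodium, which is toxic. The membrane sensors Sln1 and Sho1 activate the Pbs2 and Hog1 kinases, and the cell makes and retains glycerol, for which glycerol-3-phosphate dehydrogenase Gpd1 is the key enzyme. Sodium and lithium are pumped out by Ena1, whose gene is also controlled by calcineurin and by the Tup1 and Cyc8 corepressor. Stress of many kinds also raises chaperone and protective genes through Msn2 and Msn4 and lowers the genes that make and assemble ribosomes.

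The array carries 1457 oligos with a gene name, which read 982 genes, each oligo in 6 copies. All values are log2 ratios of NaCl over mock, so that 0 is no difference and 1 a doubling, and they compare a gene with itself and not with other genes. The 6 copies and both dye orientations were averaged into 1 value per replicate, and each group mean was tested against 0 with limma in 1 fit over 76 groups of the series. An oligo was called where p adjusted by Benjamini and Hochberg over all 1457 oligos lay under 0.05. Over all oligos, the correlation between the replicates was 0.637 at 5 min, 0.794 at 10 min, 0.851 at 20 min and 0.793 at 40 min. The dye orientations of a replicate correlated less, at 0.132 and -0.0936 at 5 min and between 0.215 and 0.68 later. Both kinds of correlation were lowest at 5 min. Replicate 1 and replicate 2 were run in different array series at every time, so replicate and array series cannot be told apart. The median over all oligos stayed between 0.00 and 0.03.

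Fewest oligos were called at 5 min, where more were lower than higher, most at 20 min, and at 40 min more were higher than lower. At 5 min 71 oligos were called (4.87% of those tested): 17 had risen (1.17%) and 54 had fallen (3.71%). At 10 min 206 were called (14.1%), of which 96 had risen (6.59%) and 110 had fallen (7.55%). At 20 min 277 were called (19%), of which 131 had risen (8.99%) and the rest had fallen (10.0%). At 40 min 91 were higher (6.25%) and 50 lower (3.43%), together 9.68%. Of the 71 oligos called at 5 min, 59 were called with the same sign at 10 min (83.1%), 41 at 20 min (57.7%) and 15 at 40 min (21.1%). Of the oligos called at 40 min, 79 (56%) were called with the same sign at 20 min. In all, 414 oligos were called at 1 or more times, and 221 of them at 1 time alone. The F test over the 4 times together called 455 oligos (31.2%). Without replicate 1 the share of oligos called was 0.0686%, 2.61%, 3.64% and 1.30% in order of time, and without replicate 2 it was 2.40%, 6.18%, 8.51% and 3.57%. The single call at 5 min without replicate 1 was upward. With the spread taken from the NaCl arrays alone, 116 oligos had risen and 151 had fallen at 5 min, and at 40 min 195 were higher and 148 lower. With the array series added to that fit as a block, 194 had risen and 220 had fallen at 5 min, 256 were higher and 206 lower at 40 min, and 10 min, with 547 calls, exceeded 20 min, with 532.

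**Figure D1:**
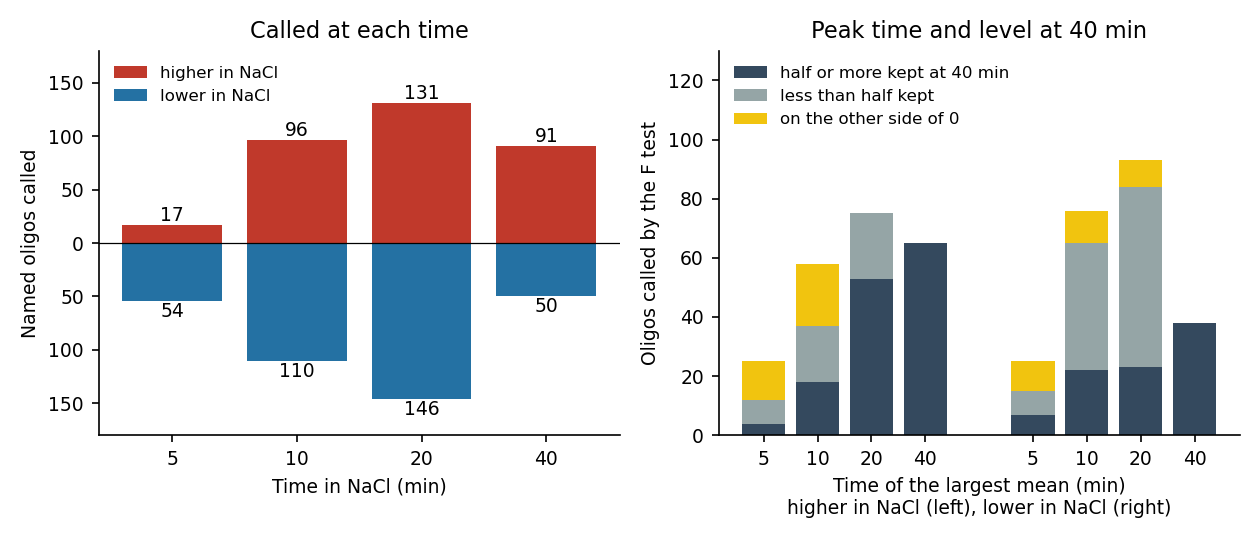
Left, the number of oligos called up or down in NaCl over mock at each time in minutes, out of 1457 tested; the bars grow to 20 min (131 of 277 up) and shrink by 40 min (91 up, 50 down). Right, the 455 oligos that passed the F test, by the time of their largest mean. Each bar is split by how much of that mean was left at 40 min. A share of 0.5 or more was left for 140 of 223 oligos that rose and for 90 of 232 that fell. These include the oligos largest at 40 min, which count as kept by definition.

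Of the oligos that rose over the course, 140 of 223 kept at least a share of 0.5 of their largest mean at 40 min, and of those that fell, 90 of 232 did. For this, each of the 455 oligos was placed by the time of its largest mean, and its mean at 40 min was set over that mean. Among the 223 that rose, 25 had their largest mean at 5 min, 58 at 10 min, 75 at 20 min and 65 at 40 min. The others kept less in 49 cases, and 34 lay on the other side of 0. The 232 that fell peaked at 5 min in 25 cases, at 10 min in 76, at 20 min in 93 and at 40 min in 38. Here 112 kept less and 30 had crossed 0. The median share left at 40 min was 0.68 for oligos that rose and 0.41 for those that fell. An oligo with its largest mean at 40 min has a share of 1.00 by definition. The 65 that rose and 38 that fell in this way therefore all count as kept. Of those that rose, 4 of 25 were kept after a largest mean at 5 min, 18 of 58 at 10 min and 53 of 75 at 20 min. Of those that fell, these were 7 of 25, 22 of 76 and 23 of 93. These shares are a description with no test, and a largest mean is chosen in part for its error.

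The osmotic genes GPD1 and ALD3 were called upward from 10 min on. GPD1 read 1.46 in replicate 1 and 0.40 in replicate 2 at 5 min, 1.65 and 0.97 at 10 min, 1.17 and 1.45 at 20 min, and 1.83 and 1.54 at 40 min. Both replicates were above 0 at every time, and their distance was largest at 5 min, where the mean of 0.93 was not called (adjusted p = 0.0529, limma). The means of 1.31, 1.31 and 1.69 at the later times were called, with adjusted p = 1.88e-05 at 40 min. ALD3, an aldehyde dehydrogenase induced by stress, had a higher mean at each time than at the one before. It read 1.51 and 0.23 at 5 min, 3.33 and 0.58 at 10 min, 3.52 and 1.78 at 20 min, and 4.20 and 2.01 at 40 min. Replicate 1 was the higher at every time, and at 10 min the mean of 1.95 had an SD as large as itself. The mean of 3.10 ± 1.54 (SD, n = 2) at 40 min had an adjusted p of 2.16e-07 in limma, but none of its calls was made from replicate 2 alone. FPS1, the channel through which glycerol leaves the cell, was called at 20 min only, at 0.33 (adjusted p = 0.0415).

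None of the 10 measured genes of the HOG pathway itself was called at any time by limma. Of all oligos 4.87%, 14.1%, 19% and 9.68% were called in order of time. Few calls are thus to be looked for among 10, and their absence does not set this list apart. At an unadjusted p under 0.05 the numbers were 0, 2, 0 and 2 of 10 in order of time. HOG1, the kinase that gives the pathway its name, had its largest mean of 0.40 at 10 min (0.45 and 0.34, adjusted p = 0.105). PBS2, the kinase upstream of it, lay between -0.19 and 0.25, and the sensor gene SLN1 between -0.27 and 0.04. The whole list spanned -0.33 to 0.40.

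Of the 17 oligos on the list of the cation pump and its regulators, 0 rose and 2 fell at 5 min, 4 rose and 1 fell at 10 min, 6 rose at 20 min and 3 rose at 40 min. These are 35.3% upward at 20 min, against 8.99% of all oligos. ENA1, the sodium pump, was not yet different from mock at 5 min, with 0.20 and -0.00 in the replicates. It reached 1.34 and 0.62 at 10 min, 1.68 and 1.84 at 20 min, and 1.91 and 2.32 at 40 min. Both replicates climbed at each step, and the means were 0.98 ± 0.51, 1.76 ± 0.11 and 2.11 ± 0.29 (SD, n = 2; adjusted p = 6.09e-05, 1.29e-12 and 4.85e-17, limma). The array oligo may also read near-identical copies of the pump gene, since the oligo sequences were not used here.

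CIN5, a transcription factor of the salt response, had its highest mean at 20 min. It read -0.39 and 0.01 at 5 min, 1.64 and 0.85 at 10 min, 2.38 and 1.79 at 20 min, and 0.95 and 0.67 at 40 min. The replicates lay on both sides of 0 at 5 min, were highest at 20 min and were lower at 40 min (mean 0.81, adjusted p = 0.0194). HAL5, a kinase that keeps potassium transporters at the membrane, was also highest at 20 min, with means of 0.22, 0.70, 1.02 (adjusted p = 7.21e-08) and 0.40. HAL9, a zinc-cluster protein tied to salt tolerance, was called at 20 min only, at 0.83. PPZ1, a phosphatase that limits salt tolerance, had its highest mean at 40 min, with means of 0.55, 0.68 and 0.90 from 10 to 40 min, all called. Its close relative PPZ2 was called at 20 min, at 0.55, and the array may not separate the pair.

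The members of this list that fell were TUP1 and SIS2. TUP1, the corepressor gene, read -0.74 and -0.47 at 5 min and -0.63 and -0.83 at 10 min, and both means were called (-0.61 and -0.73). It was -0.38 at 20 min and -0.07 at 40 min, neither called. SIS2, an inhibitor of the Ppz1 phosphatase, was called at 5 min alone, at -0.42 (adjusted p = 0.027). CRZ1, the factor that calcineurin activates, and the 3 oligos of the calcineurin subunit CNB1 were not called, with means between -0.16 and 0.37.

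General stress genes were called mostly at 20 and 40 min. Of the 6 measured, 0 had risen at 5 min, 2 at 10 min, 4 at 20 min and 5 at 40 min (0%, 33.3%, 66.7% and 83.3%, against 1.17%, 6.59%, 8.99% and 6.25% of all oligos called upward). The median was 0.34, 0.41, 1.21 and 1.40. All 6 passed the F test, and all kept a share of 0.5 or more at 40 min, 2 of them by definition as they were largest then. ALD3 is also on the osmotic list, and HSP104, SSA3 and SSA4 are also on the chaperone list. The same calls are therefore counted in more than 1 list. All lists were chosen with earlier results of these data known, so their shares beside those of all oligos are a description with no test. HSP104, which dissolves protein aggregates, was the early member: it read 2.17 and 1.12 at 5 min, 2.63 and 2.05 at 10 min, 1.87 and 2.43 at 20 min, and 1.78 and 2.26 at 40 min. Its replicates stayed above 1 throughout, yet it varied widely over the series, so that 1.65 at 5 min was not called (adjusted p = 0.0624) and 2.34 at 10 min was (adjusted p = 0.00112). Its calls at 20 and 40 min were lost when either replicate was left out. TDH1, a glycolytic dehydrogenase, was the late member, at -0.02, 0.19, 0.64 and 1.51, and it was called at 40 min only (1.22 and 1.79, adjusted p = 0.0138).

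Among 11 chaperone genes, none was called at 5 min, 3 had risen at 10 min (27.3%, against 6.59% of all oligos) and 4 each at 20 and 40 min (36.4%, against 8.99% and 6.25%). At an unadjusted p under 0.05 there were 4 at 5 min. SSE2, an exchange factor for the Hsp70 chaperones, was called upward from 10 min on and reached 1.47 and 1.65 at 40 min (mean 1.56, adjusted p = 2.88e-07). The stress-inducible Hsp70 genes SSA3 and SSA4 were not called until 20 min, when their means were 1.06 and 1.36, and they were still at 0.98 and 1.29 at 40 min. KAR2, the Hsp70 of the endoplasmic reticulum, read 0.91, 0.82, 0.53 and -0.08, with none of these called. SSB1, an Hsp70 that sits on ribosomes, was the single member called down, at -0.39 in both replicates at 40 min (adjusted p = 0.0207). The replicates differed in timing here: the median of the list was 0.57, 0.69, 0.44 and 0.28 in replicate 1 and 0.22, 0.35, 1.13 and 0.73 in replicate 2. As SSA3 and SSA4 are similar in sequence, each may read the other.

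**Figure D2:**
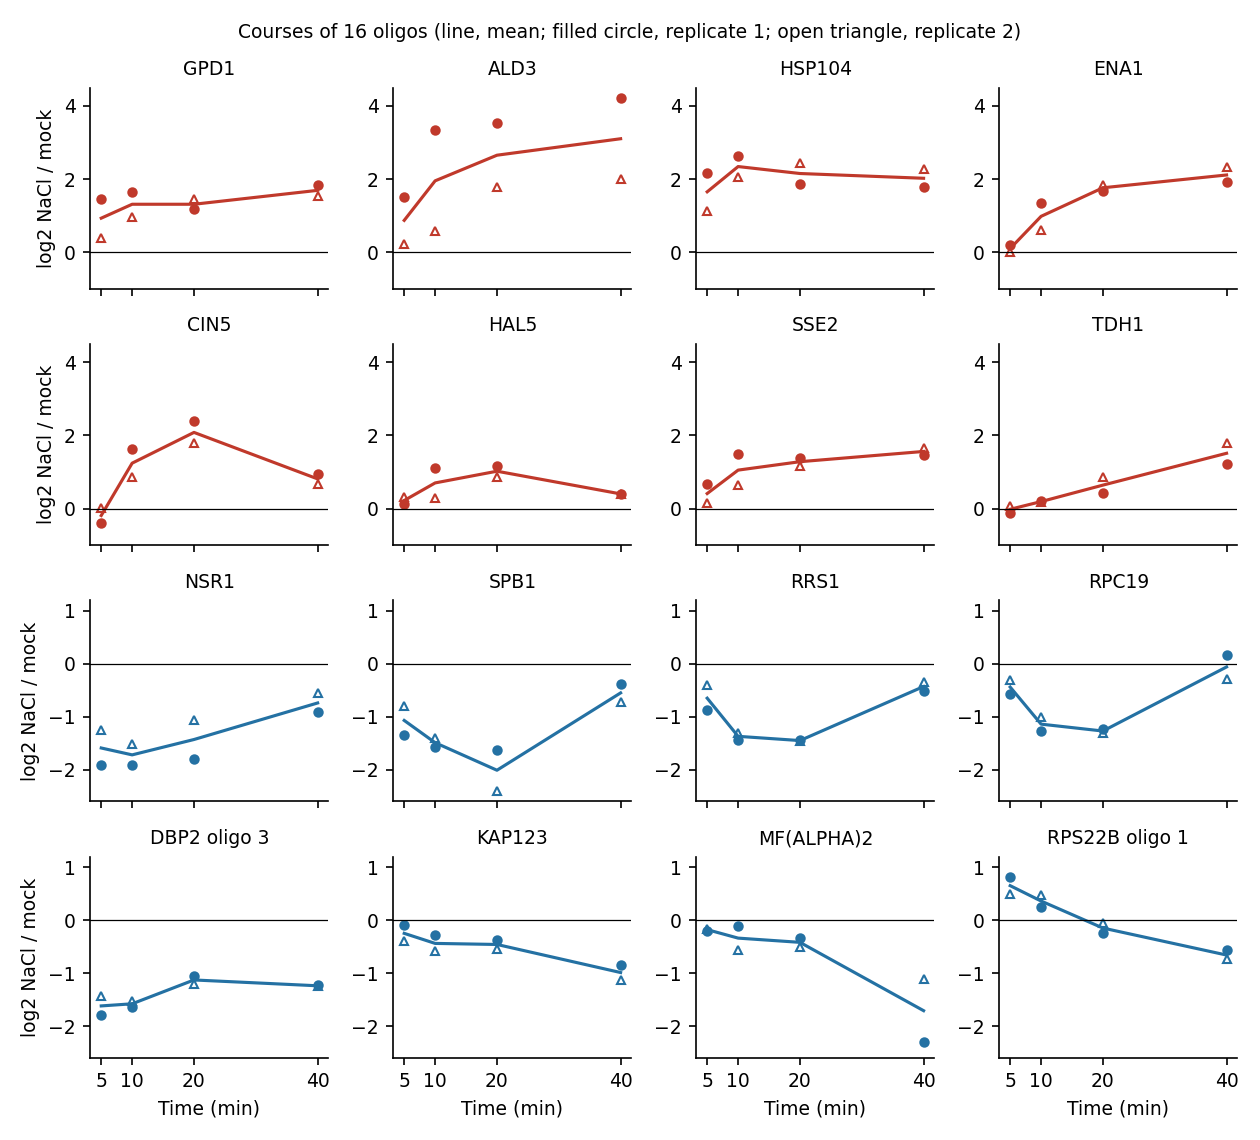
Log2 ratio of NaCl over mock at 5, 10, 20 and 40 min for 16 oligos; the line is the mean of 2 replicates, filled circles are replicate 1 and open triangles replicate 2. ENA1 rose at each step to 2.11, CIN5 turned after 20 min, SPB1 fell to -2.01 at 20 min and returned to -0.55, and MF(ALPHA)2 moved mainly between 20 and 40 min.

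Ribosome biogenesis genes fell from 5 min on, and few were still called at 40 min. Of 46 oligos of 44 genes, 10 had fallen at 5 min, 26 at 10 min, 29 at 20 min and 4 at 40 min, and none had risen at any time. In percent these are 21.7, 56.5, 63 and 8.70, against 3.71, 7.55, 10.0 and 3.43 of all oligos called downward. The median of the list was -0.48, -0.68, -0.69 and -0.28. Nearly every member was below 0, called or not: 45 of 46 at 5 min and 41 of 46 at 40 min. The medians were -0.68, -0.73, -0.71 and -0.27 in replicate 1 and -0.34, -0.63, -0.71 and -0.30 in replicate 2, so the replicates were apart at 5 min and close from 10 min on. Of the 35 that passed the F test, 16 were lowest at 10 min and 17 at 20 min, 25 had less than a share of 0.5 left at 40 min, and 1 had crossed 0.

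NSR1, the nucleolin of yeast, was already at its low level at 5 min, with -1.92 and -1.25, and stayed there at 10 min (-1.91 and -1.52) and 20 min (-1.79 and -1.06). At 40 min it was -0.92 and -0.56, a mean of -0.74 that was still called (adjusted p = 0.0322). SPB1, a methyltransferase of the large-subunit rRNA, fell further with time, from -1.34 and -0.80 at 5 min to -1.62 and -2.41 at 20 min. It had returned to -0.38 and -0.72 at 40 min. RRS1, an assembly factor of the large subunit, and NOP4, another such factor, were close to their lowest at both 10 and 20 min (-1.37 and -1.45, and -1.29 and -1.37) and were not called at 40 min.

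The core proteins of the small nucleolar RNPs had different lowest times. NOP1, the fibrillarin methyltransferase, was down at 5 min (-0.98) and lowest at 20 min (-1.33). NOP56, its partner in the same particles, was -0.07 at 5 min, -0.37 at 10 min, -0.88 at 20 min and -0.74 at 40 min, with the last pair called. CBF5, the pseudouridine synthase, was lowest at 20 min (-1.21 and -1.14) and -0.25 at 40 min. DHR2, a helicase of small-subunit assembly, was called at all 4 times and lowest at 10 min (-1.57 and -1.45).

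Genes of the polymerases that make rRNA and tRNA were called at 10 and 20 min only. Of 15 oligos, none was called at 5 min (2 at an unadjusted p under 0.05), 1 rose and 4 fell at 10 min, 1 rose and 3 fell at 20 min, and none was called at 40 min (2 unadjusted). The calls downward were 26.7% and 20% of the list at 10 and 20 min, against 7.55% and 10.0% of all oligos, and the 1 upward call was 6.67%, against 6.59% and 8.99%. RPC19, a subunit shared by polymerases I and III, read -1.27 and -1.01 at 10 min, -1.23 and -1.30 at 20 min, and 0.16 and -0.28 at 40 min, the last on both sides of 0. RPA34, a subunit of polymerase I, reached -1.03 at 20 min. BDP1, a subunit of the factor TFIIIB that recruits polymerase III, was the member that rose, to 0.67 at 10 min and 0.88 at 20 min (adjusted p = 4.44e-06).

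Ribosomal protein genes were called in both directions up to 20 min and downward alone at 40 min. They are read by 330 oligos. At 5 min 4 rose and 16 fell, at 10 min 11 rose and 35 fell, at 20 min 3 rose and 75 fell, and at 40 min none rose and 23 fell. The share called downward was 4.85%, 10.6%, 22.7% and 6.97%, against 3.71%, 7.55%, 10.0% and 3.43% of all oligos. The share called upward was 1.21%, 3.33%, 0.909% and 0%, against 1.17%, 6.59%, 8.99% and 6.25%. At 5 min both shares thus lay near those of all oligos. The list's median was small throughout, at 0.02, -0.01, -0.13 and -0.15. Of those that fell by the F test, 60 were lowest at 20 min and 20 at 40 min; of the 27 that rose, 24 were highest at 5 or 10 min and 19 lay below 0 at 40 min. RPP0, the base of the ribosomal stalk, was low from the start, at -0.83 and -1.26 at 5 min and -1.13 and -0.45 at 40 min, and was called at all times. RPL41A, which encodes the very short protein L41, was high instead, at 0.67 and 0.87 at 5 min and 0.66 and 1.11 at 10 min, and at 0.38, not called, at 40 min. Many of these genes exist in near-identical pairs, and how far an oligo reads both was not examined.

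A few tRNA genes rose at the early times. Of 59 oligos, 3 rose at 5 min, 8 at 10 min, 2 at 20 min and 1 at 40 min, and none fell. The 13.6% at 10 min stand against 6.59% of all oligos called upward. YNCD0013C, a tRNA gene, read 1.12 and 1.08 at 5 min and 1.05 and 0.87 at 10 min. Its replicates then parted, with 0.05 and 1.31 at 40 min (mean 0.68, not called). YNCA0006C was at 0.71 and 0.80 at 5 min, 0.55 and 0.92 at 10 min, and 0.07 and 0.21 at 40 min. SUF10 was at 0.51 and 0.67 at 5 min and at -0.15 and 0.11 at 40 min. With the treated RNA in Cy3 alone SUF10 gave -0.03 at 5 min (adjusted p = 0.955), and each of these calls at 5 min was lost when either replicate was left out.

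**Figure D3:**
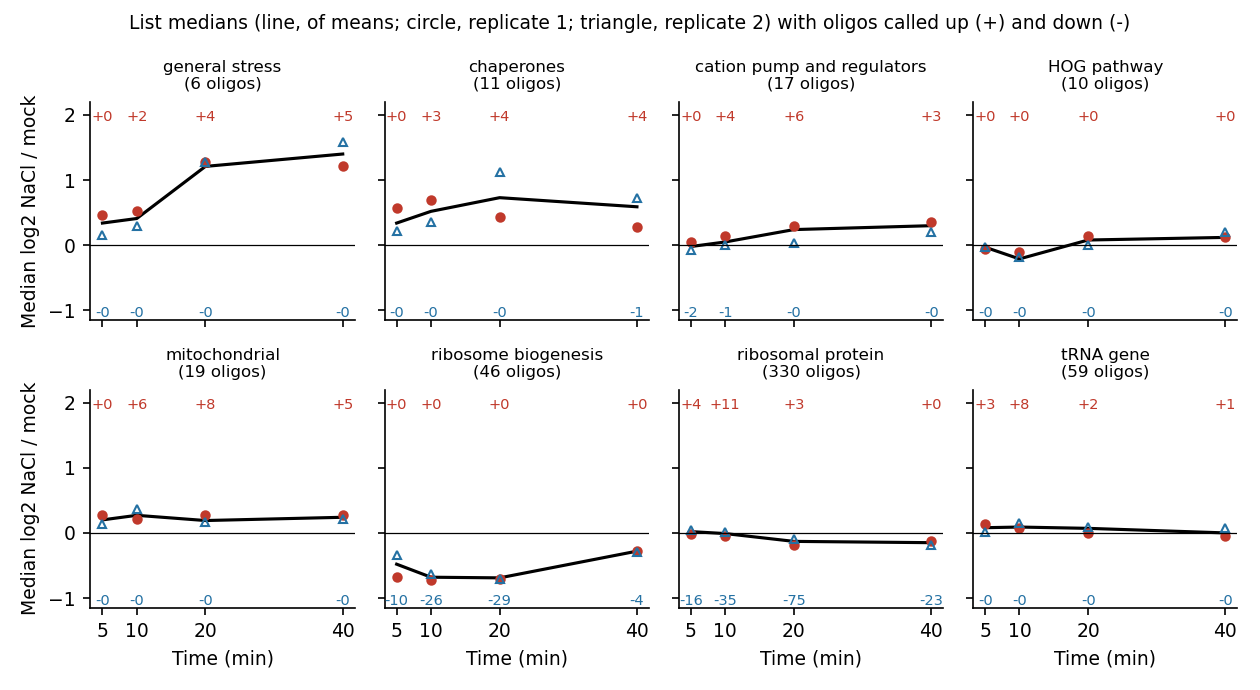
Median log2 ratio of NaCl over mock at 5, 10, 20 and 40 min for 8 gene lists (line, of the means; circles, replicate 1; triangles, replicate 2), with the numbers of oligos called up and down at each time. The general stress list rose to a median of 1.40 at 40 min. The ribosome biogenesis list fell to -0.69 at 20 min and returned to -0.28. The HOG pathway list had no called member, where at most 19% of all oligos were called at a time.

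Several other genes were still low at 40 min. DBP2, a DEAD-box RNA helicase, had the lowest mean of any oligo at 5 min: DBP2 oligo 3 read -1.80 and -1.43. It remained low at 40 min, with -1.23 and -1.25. DBP2 oligo 2 was also called at all 4 times, whereas DBP2 oligo 1 was -0.64 at 40 min and not called. IMD4, an IMP dehydrogenase of guanine nucleotide synthesis, was called at 20 and 40 min: IMD4 oligo 2 had means of -0.36, -0.56, -0.89 and -1.28, and IMD4 oligo 3 of -0.24, -0.44, -0.83 and -1.13. KAP123, the importin of ribosomal proteins, read -0.09 and -0.40 at 5 min and -0.84 and -1.14 at 40 min (adjusted p = 1.43e-07).

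Mating genes were called downward mainly at 20 and 40 min. Of 17 oligos, 1 fell at 5 min, 3 at 20 min and 4 at 40 min, while 1 rose at 10 and at 20 min. The downward calls were 17.6% at 20 min and 23.5% at 40 min, against 10.0% and 3.43% of all oligos. MF(ALPHA)2, which encodes the alpha-factor pheromone, read -0.34 and -0.50 at 20 min and -2.30 and -1.12 at 40 min. The replicates differed in size, but both fell steeply between these times (mean -1.71 at 40 min, adjusted p = 2.98e-12). Its sister gene MF(ALPHA)1 was called at 20 min (-0.88) and was -0.71 at 40 min, not called. FUS3, the mating kinase, was at -0.69, -0.51, -0.58 and -0.58, and SST2, which damps the pheromone signal, was at -0.65 at 40 min.

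Mitochondrial genes were called upward from 10 min on, and ubiquitin and proteasome genes mostly at 20 and 40 min. Of 19 oligos of 7 mitochondrial genes, none was called at 5 min (7 at an unadjusted p under 0.05), 6 rose at 10 min, 8 at 20 min and 5 at 40 min, and none fell. These are 31.6%, 42.1% and 26.3%, against 6.59%, 8.99% and 6.25% of all oligos. RIP1, the Rieske protein of the respiratory chain, went from 0.62 and 0.13 at 5 min to 1.43 and 0.90 at 40 min. COX5B oligo 3, from a cytochrome oxidase subunit, was at 1.18 and 1.45 at 20 min and at 1.10 and 1.42 at 40 min. Of 27 oligos on the ubiquitin and proteasome list, 1 rose at 5 and at 10 min, 4 at 20 min and 5 at 40 min (3.70%, 3.70%, 14.8% and 18.5%, against 1.17%, 6.59%, 8.99% and 6.25%). The 1 call at 5 min, PRE3 oligo 2, rested on replicate 2 alone (-0.06 and 1.55). PRB1, a vacuolar protease outside these lists, read 0.86 and 1.45 at 20 min and 1.44 and 1.64 at 40 min.

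Splicing factor genes were called in both directions up to 20 min. Of 99 oligos of 89 splicing-factor genes, 2 rose and 3 fell at 5 min, 9 rose and 3 fell at 10 min, 12 rose and 2 fell at 20 min, and 5 rose at 40 min. The 12.1% called upward at 20 min lie near the 8.99% of all oligos. SPP2, a partner of the Prp2 helicase, was the only oligo called upward at all 4 times, at 0.35, 0.37, 0.55 and 0.40. CWC27, a spliceosomal cyclophilin, and SLU7, a second-step factor, were at 0.68 and 0.67 at 20 min. PRP43, a helicase of both spliceosome and ribosome assembly, fell, to -0.94 at 10 min. MSL5, the branch point binding protein, was at -0.68 and -0.71 at 5 min and back near 0 at 20 min (-0.10).

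Of 42 oligos of RNA decay genes, 1 fell at 5 min, 2 rose and 3 fell at 10 min, 4 rose and 3 fell at 20 min, and 3 rose at 40 min. At 20 min these are 9.52% upward and 7.14% downward, near the 8.99% and 10.0% of all oligos, and the 7.14% upward at 40 min lie near 6.25%. DHH1, a helicase that promotes decapping, was at 0.04 and 0.05 at the early times and rose to 0.73 and 0.38 at 20 min and 0.78 and 1.00 at 40 min. NMD4, of nonsense-mediated decay, was at 0.63, 0.60 and 0.52 from 10 min on. AIR1, of the TRAMP complex that marks nuclear RNA for decay, fell at the early times instead, to -0.57, -0.69 and -0.40. Among 56 oligos of nuclear transport, the Ran genes parted: GSP2 rose to 1.44 and 1.25 at 40 min, and GSP1 was lowest at 5 min (-0.46 and -0.78). Of 27 oligos of translation factors and tRNA enzymes, 2, 3, 2 and 4 fell in order of time (7.41%, 11.1%, 7.41% and 14.8%, against 3.71%, 7.55%, 10.0% and 3.43% of all oligos). PAB1, the poly(A)-binding protein, was called at 40 min, at -0.88 and -0.55.

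The times were then tested against each other. Between neighbouring early times limma called 0 oligos for 10 against 5 min (26 at an unadjusted p under 0.05) and 0 for 20 against 10 min (68 unadjusted). Between 5 and 20 min 11 oligos differed (0.755% of those tested, 8 higher and 3 lower at 20 min). Between 20 and 40 min 12 differed (0.824%), 10 higher (0.686%) and 2 lower (0.137%) at 40 min. Between 10 and 40 min 31 differed (2.13%). Between 5 and 40 min 39 differed (2.68%), 20 higher (1.37%) and 19 lower (1.30%) at 40 min. The counts above 0 dropped to between 0 and 11 when either replicate was left out, while 10 against 5 min gave 3 without replicate 2. The replicates lie in separate array series, and with the NaCl arrays alone and the series as a block 13% of oligos differed between 5 and 20 min, 6.52% between 20 and 40 min, 22.1% between 10 and 40 min and 20.5% between 5 and 40 min. Without the block the same arrays gave 4.80%, 2.81%, 12.7% and 13.7%.

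From 5 to 20 min CIN5 gained 2.27 (SE 0.35, adjusted p = 3.03e-06) and ENA1 1.66 (SE 0.27, adjusted p = 5.55e-06). NRD1, a factor that ends noncoding transcripts, gained 0.91, and RPL22B oligo 1 lost the most, -1.27 (SE 0.30). From 5 to 40 min ENA1 gained 2.01 (SE 0.27, adjusted p = 1.45e-08). ALD3 gained 2.23 (SE 0.66, adjusted p = 0.0363), which was lost when either replicate was left out. ADR1, a transcription factor for growth on ethanol and fatty acids, went from -0.29 and -0.38 to 1.44 and 0.86, a gain of 1.48 (adjusted p = 0.00197). HTA1, a histone H2A gene, went from 0.30 and 0.51 to -1.05 and -0.37.

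Between 20 and 40 min a few low oligos moved towards 0, and CIN5 was the only raised oligo called as doing so. SPB1 regained 1.46 (SE 0.40, adjusted p = 0.0494) and CIN5 lost 1.27, written as a difference of -1.27 (SE 0.35, adjusted p = 0.0494); both calls were lost when either replicate was left out. RPL28 oligo 2 regained 1.39, going from -1.22 and -0.79 to 0.39 and 0.38, and RPS9B oligo 3 regained 1.28, from -1.24 and -1.34 to 0.03 and -0.06. Of the 10 oligos that were higher at 40 min, 8 belong to ribosomal protein genes, 2.42% of that list against 0.686% of all oligos. MF(ALPHA)2 moved the other way, by -1.29 (adjusted p = 0.00172).

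A single oligo was called in opposite directions at 5 and 40 min. RPS22B oligo 1, from a gene of a small-subunit protein, read 0.81 and 0.50 at 5 min, 0.25 and 0.47 at 10 min, -0.24 and -0.06 at 20 min, and -0.57 and -0.74 at 40 min. The replicates agreed on the side of 0 at every time, and the change of -1.31 had an SE of 0.25 (adjusted p = 1.62e-04). Neither RPS22B oligo 2 nor RPS22B oligo 3 shared this course, with means of 0.15 and -0.32 at 5 min and -0.42 and -0.31 at 40 min.

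Oligos of 1 gene can read different parts of its transcripts, and 235 genes have several, with 710 oligos among them. The annotation used here does not say which oligo lies in an exon, an intron or at a junction, so each oligo was tested against the mean of the other oligos of its gene. At 5 min 36 oligos differed (5.07%), at 10 min 83 (11.7%), at 20 min 95 (13.4%) and at 40 min 43 (6.06%). Ribosomal protein genes supplied most of these early and few of them late. Of 99 such genes, 26, 40, 46 and 5 had a differing oligo in order of time, and of the other genes 2, 12, 17 and 24. The difference itself changed between 5 and 40 min for 27 oligos, 14 upward and 13 downward.

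RPS13, another gene of the small subunit, had the only oligo that differed at all 4 times. RPS13 oligo 3 lay below its gene's other oligos at 5, 10 and 20 min, with differences of -0.83 at 5 min and -1.07 at 20 min, and above them by 0.61 at 40 min (adjusted p = 0.0358). Its own replicates were -1.29 and -0.95 at 20 min and 0.09 and 0.18 at 40 min. RPS13 oligo 1 and RPS13 oligo 2 were at 0.27 and 0.23 at 5 min and had fallen to -0.48 and -0.46 at 40 min. The sign of the difference therefore turned, by 1.44 from 5 to 40 min (adjusted p = 3.88e-04).

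A like pattern, low on 1 oligo until 20 min, was seen in RPL28 oligo 2, RPS9B oligo 3 and RPS0B oligo 3, whose differences at 20 min were -1.23, -1.31 and -1.26. For RPS0B this leaves out 5 min, where RPS0B oligo 2 also had a low mean of -1.02. That mean includes a single spot at -17.68. RPL18B oligo 2 led at 5 min, at -1.06 from the others; its own values of -1.35 and -0.67 there were still -0.69 and -0.53 at 40 min. RPL18B oligo 3 of the same gene stayed between -0.13 and 0.23.

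At 40 min 22 oligos lay above the rest of their gene and 21 below. OM14, a protein of the outer mitochondrial membrane, had the largest: OM14 oligo 1 read 1.45 and 1.81, while OM14 oligo 2 read -0.40 and -0.27. Their distances from the other oligos were 1.76 and -1.19 (adjusted p = 9.10e-08 and 2.45e-06). UBC5, a ubiquitin-conjugating enzyme that acts on damaged proteins, showed the same: UBC5 oligo 3 rose from -0.04 and -0.09 at 5 min to 1.44 and 1.36 at 40 min. UBC5 oligo 1 and UBC5 oligo 2 stayed between -0.05 and 0.10. Its distance from them was 1.44 at 40 min (adjusted p = 9.10e-08). What each oligo reads was not examined.

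**Figure D4:**
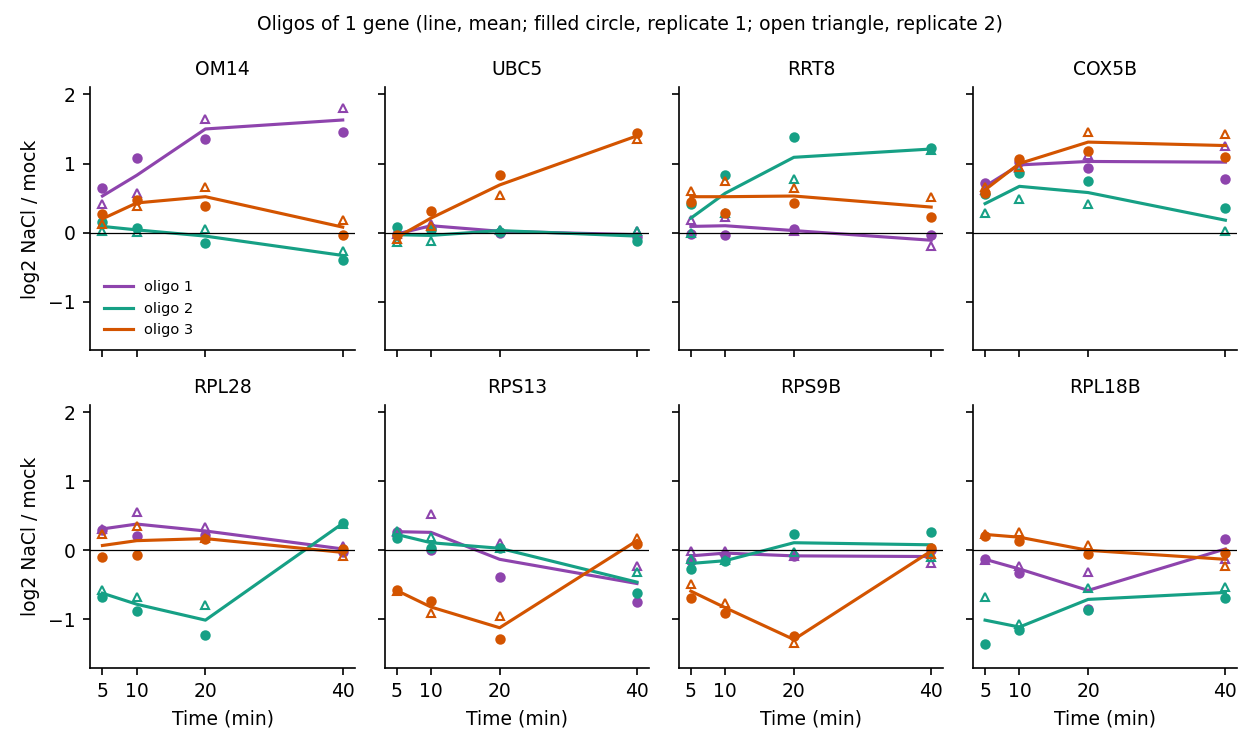
Log2 ratio of NaCl over mock at 5, 10, 20 and 40 min for each oligo of 8 genes; colours are the oligos, lines join the means of 2 replicates, filled circles are replicate 1 and open triangles replicate 2. OM14 oligo 1 and UBC5 oligo 3 rose to 1.63 and 1.40 while another oligo of the same gene stayed near or below 0, and RPS13 oligo 3 was low to 20 min and then crossed the other oligos.

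The NaCl course was set against 300 mM LiCl (3 replicates a time) and 1 M KCl (3 replicates at 5 min and 4 later) in the same wild type. The doses differ in concentration, so that a difference is between these treatments and not between the ions. The mock controls of the salts may be shared, which the labels do not settle. NaCl and LiCl differed on 12 oligos at 5 min (0.824%), 2 at 10 min (0.137%), 23 at 20 min (1.58%) and 61 at 40 min (4.19%). With arrays scaled to a common spread these counts were 6, 0, 6 and 21. NaCl and KCl differed on 7 oligos at 5 min (0.480%), 72 at 10 min (4.94%), 277 at 20 min (19%) and 287 at 40 min (19.7%). The 7 at 5 min include RPS0B oligo 2, RPS16A oligo 1 and ACA1. Each of these had a single spot far from its copies on a NaCl array at 5 min, at -17.68, -6.898 and -4.499. The KCl replicates lay in other array series than NaCl at 5 and 10 min, and mostly so at 20 and 40 min. The fit has no term for the array series, so KCl against NaCl and series against series can largely not be told apart.

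ENA1 was lower in NaCl than in LiCl at 5 min and higher at 40 min. In LiCl it was at 1.87 ± 0.71, 2.31 ± 0.11, 2.79 ± 0.43 and 1.05 ± 0.14 (SD, n = 3), against 0.10, 0.98, 1.76 and 2.11 in NaCl. The difference was -1.78 (SE 0.24, adjusted p = 5.48e-08) at 5 min and 1.06 (SE 0.24, adjusted p = 0.0033) at 40 min, so the order of the salts turned. Within the array series that holds NaCl replicate 2, ENA1 was at -0.00, 0.62, 1.84 and 2.32 in NaCl and at 1.57, 2.31, 2.57 and 1.12 in LiCl, with the same turn. CIN5 was also lower in NaCl at 5 min, at -0.19 against 1.84 ± 0.74 at 5 min (difference -2.02, SE 0.32). At 20 min its difference of -0.21 (SE 0.32) was not called. CUP2, the copper-sensing activator, was at 0.33 against 1.71 ± 0.51 at 5 min.

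At 20 and 40 min some genes lay further from 0 in LiCl. SSA4 was at 3.11 ± 0.40 and 3.23 ± 0.58 in LiCl at 20 and 40 min, and at 1.36 and 1.29 in NaCl. The differences of -1.75 and -1.94 (SE 0.47 each, adjusted p = 0.0241 and 0.00578) were called. RPL7B oligo 3 was at -2.26 ± 0.55 and -2.47 ± 0.51 in LiCl and at -1.14 and -0.64 in NaCl. Of the 330 ribosomal protein oligos, 25 were higher in NaCl than in LiCl at 40 min and none was lower. These are 7.58%, against 3.23% of all oligos higher and 0.961% lower. RPS9A oligo 1 was an example, at 0.23 in NaCl and -1.35 ± 0.42 in LiCl. HSP104, GPD1 and ALD3 were not called between the salts at any time, which does not show equal levels. For ALD3 at 40 min the difference was 0.14 (SE 0.60). At 5 min the 3 osmotic oligos (GPD1, ALD3 and FPS1) had differences from -1.42 to -0.15, all lower in NaCl, with a median of -0.99.

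At 20 min several genes called in NaCl were near 0 in KCl. ENA1 was at -0.13 ± 0.07 and CIN5 at 0.09 ± 0.07 in KCl (SD, n = 4), so that NaCl lay above by 1.89 (SE 0.23) and 2.00 (SE 0.30). GPD1 was at -0.42 ± 0.26 in KCl, a difference of 1.73 (SE 0.37, adjusted p = 3.56e-04). SPB1 and RPC19 were at 0.04 ± 0.31 and 0.54 ± 0.20, below which NaCl lay with differences of -2.06 and -1.81. Of the 46 biogenesis oligos, 22 were lower in NaCl than in KCl at 20 min and none was higher, 47.8% against 9.27% of all oligos lower and 9.75% higher. At 40 min YNCA0006C was higher in KCl, at 1.75 ± 0.44 against 0.14 in NaCl. RPS22B oligo 1 lay on the other side of 0 in KCl, at 0.78 ± 0.24 against -0.66 in NaCl. Of 59 tRNA oligos, 11 were then lower in NaCl than in KCl and 2 higher, against 8.85% and 10.8% of all oligos.

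Sorbitol at 1 M, an osmolyte without salt, was run once at each time and so gives no test. ENA1 was at -0.10, -0.25, -0.13 and 1.53 there, and GPD1 was at 0.79, 0.72, 1.32 and 1.43. HSP104 was at 2.26, 1.67, 0.76 and 1.25, its highest value the first. SPB1 was at -1.09 at 5 min and -0.34 at 20 min, where NaCl gave -2.01.

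**Figure D5:**
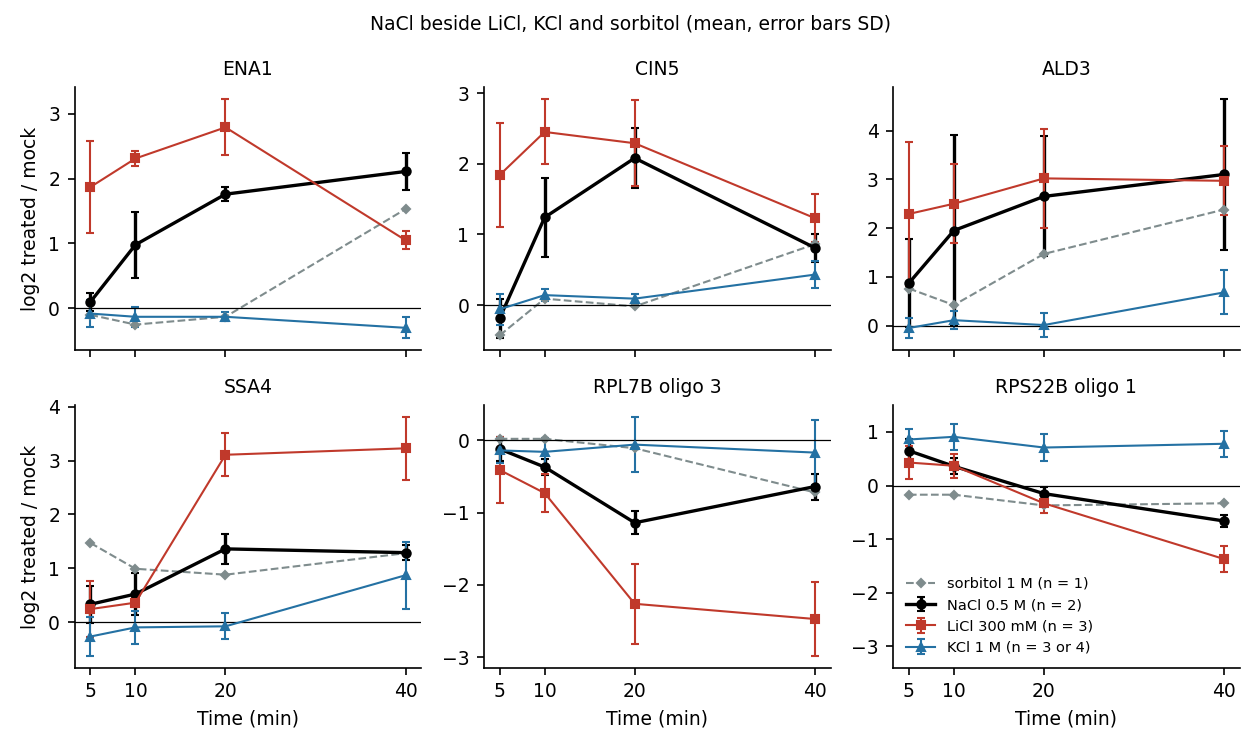
Log2 ratio over mock at 5, 10, 20 and 40 min for 6 oligos in NaCl (n = 2), LiCl (n = 3), KCl (n = 3 or 4) and sorbitol (n = 1); points are means and error bars are SD. ENA1 and CIN5 are up in LiCl at 5 min and not yet in NaCl, SSA4 in LiCl exceeds 3 at 20 and 40 min, and KCl stays near 0 for ENA1.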

How the data were processed

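The authors deposited, per the file headers, 1 value per spot and array, which the values show to be a log2 ratio of the labels' channel 1 over channel 2; the base, the background correction and the normalization are not given in the sources used here, and base 2 was assumed. Spot intensities were not analysed here, so signal over background is unknown, and the number of arrays limits the precision. Per array, the 6 copies of an oligo were averaged, the sign was turned to treated over control, and both dye orientations were averaged into 1 value per array identifier. Between 0.673% and 18.6% of the spots of a NaCl array were missing. On 1 array (5 min, replicate 1, Cy5) single spots of RPS0B oligo 2 and ASC1 oligo 1 lay at -17.7 and -16.8. The courses of those oligos are not described, but both oligos stay in the fit and the counts. RPS0B oligo 2 passed the F test as lowest at 5 min, with a mean of -1.02. The median of its copies on that array was -0.0466.

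Group means and contrasts were tested with limma 3.58.1 (lmFit, eBayes, two-sided) in R 4.3.3, with 1 mean for each of 76 groups of strain, treatment, time and control with 2 or more identifiers, 184 identifiers and 108 residual degrees of freedom; p was adjusted by Benjamini and Hochberg over 1457 named oligos, or 710 for differences within genes. The spread is shared with the other groups because 2 replicates give little of their own. Left out were 7 identifiers with control cells in channel 1, whose direction could not be settled. RRP6, deleted in 26 other arrays of the series, had a mean of -2.10 there. The test was checked on simulated data. Scripts used Python 3.11.15, pandas 2.3.3 and numpy 2.4.6.

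The members and the 21 gene lists were chosen with earlier results of these data known; SUP45 and MTR2 were taken off lists (tRNA and mitochondrial) they do not belong to after the counts were seen. Genes were named by rule: the 6 highest and 6 lowest called at each time, the 4 of each sign in each contrast, all members of the osmotic, HOG, cation, chaperone and general stress lists, and the extremes of other lists; the text names a part of them, and AIR1, MSL5, PRP43, PRB1, SPP2, NMD4, RPP0 and further list members were added after their values were seen. A share of 0.5 was the limit for kept. Replicate numbers, given by order, were not used as pairs in the main test, although all arrays of a number lie in 1 array series: the correlations of replicate deviations between times ran from -0.014 (5 and 40 min) to 0.556 (5 and 10 min), with 2 pairs per comparison. The fit with the series as a block is given beside the changes between times. Promoter and oligo sequences were not used here. The alternatives tried are in the closing section.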

Additional observations from a re-analysis of the deposited data

Results flagged for a closer look

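The NaCl effect differed between times, by a test of the difference itself, on 11 oligos between 5 and 20 min, 12 between 20 and 40 min, 31 between 10 and 40 min and 39 between 5 and 40 min. Of the 39, 12 of those that fell and 3 of those that rose belong to ribosomal protein genes (3.64% and 0.909% of the 330 oligos, against 1.30% and 1.37% of all). RPS22B oligo 1 lay above 0 in both replicates at 5 min and below 0 in both at 40 min, a change of -1.31.

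Calls were also made among the 79 oligos that carry no gene name here. Of these, 10 were called at 5 min (1 up, 9 down), 10 at 10 min (1 up, 9 down), 10 at 20 min (3 up, 7 down) and 12 at 40 min (3 up, 9 down), with means from -1.50 to 1.75 over the times. Of the named oligos, 4.87%, 14.1%, 19% and 9.68% were called in order of time. The unnamed oligos were thus called more often than the named ones at 5 and 40 min and less often at 10 and 20 min. A difference in share was not tested. With 2 replicates a time, no replicate could be tested as lying apart.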

How the results depend on the processing

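The counts depend on the samples that set the spread and on each replicate, and are given here in percent of the 1457 named oligos, or of the 710 oligos of genes with several for differences within genes. With 1 replicate left out, where the lone sample is taken to vary like the other groups, the F test called 10.3% to 17.1%, the times 0.0686% to 2.40%, 2.61% to 6.18%, 3.64% to 8.51% and 1.30% to 3.57% (5, 10, 20 and 40 min), 10 against 5 min 0% to 0.206%, 40 against 20 min 0% to 0.275%, 20 against 5 min 0.0686% to 0.412%, 40 against 10 min 0.0686% to 0.206%, 40 against 5 min 0.206% to 0.755%, and differences within genes 0% to 2.11%, 0.704% to 2.39%, 1.55% and 1.27% to 1.69%. No oligo named by the rule changed sign. At a single time this could not happen, since the rule takes only oligos with both replicates on the same side of 0. Over all calls, 1 of 71 at 5 min turned without replicate 2. Without replicate 1, 1 of 11 turned for 20 against 5 min and 1 of 39 for 40 against 5 min. Most calls of oligos named by the rule were lost without replicate 1, and fewer without replicate 2. With the NaCl identifiers alone the F test called 49.1%, the times 18.3%, 30.3%, 32.2% and 23.5%, 40 against 20 min 2.81%, 20 against 5 min 4.80%, 40 against 10 min 12.7%, 40 against 5 min 13.7%, and within genes 20.1%, 28.9%, 30.6% and 13.4%. With the replicate block added, the shares were 57.5%, 28.4%, 37.5%, 36.5%, 31.7%, 6.52%, 13%, 22.1%, 20.5%, 24.6%, 33.2%, 36.2% and 17.6%, and 0.0686% for 20 against 10 min; the replicates of a number share an array series at every time, and whether they share a culture or day was not tested. With the salt groups alone, 20 against 5 min gave 1.85%, 40 against 10 min 3.36%, 40 against 5 min 5.49%, NaCl against LiCl 0.412% and 0.824% (10 and 20 min) and NaCl against KCl 0% at 5 min. With the 7 left-out identifiers included, 5 min gave 3.02%, 40 min 6.11%, 40 against 20 min 0.0686%, 20 against 5 min 0.275%, 40 against 10 min 0.755%, 40 against 5 min 1.03%, NaCl against LiCl 0% and 1.72% (10 and 40 min), NaCl against KCl 0.275%, 2.13% and 11.7% (5 to 20 min), and within genes 1.27% at 5 min.

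Cy5 alone gave 16.1% at 5 min, 0.137% for 10 against 5 min, 0.0686% for 20 against 10 min, 0.961% for 40 against 10 min, 1.24% for 40 against 5 min, NaCl against LiCl 1.72%, 1.03% and 2.40% (5, 10 and 40 min), NaCl against KCl 2.81% at 5 min, and within genes 15.2%, 18% and 12.7% (5, 10 and 40 min). Cy3 alone gave 11.3% at 5 min, 15.2% at 40 min, 0.480% for 40 against 20 min, 0.206% for 20 against 5 min, 0.343% for 40 against 10 min, 0.892% for 40 against 5 min, NaCl against LiCl 0.343%, 0% and 0.412% and NaCl against KCl 0.206%, 1.10% and 11.8% (5 to 20 min), within genes 8.59%, 8.87% and 9.30% (5, 20 and 40 min), and turned SUF10 at 5 min to -0.03. A common spread gave NaCl against LiCl 0.412%, 0%, 0.412% and 1.44% and NaCl against KCl 0.206% and 2.68% (5 and 10 min). The median of copies gave 0.0686% for 10 against 5 min, 1.51% for 20 against 5 min, NaCl against LiCl 0.686% at 10 min and NaCl against KCl 0.206% at 5 min. Leaving out oligos with few copies gave 0.137% for 10 against 5 min, 0.0686% for NaCl against LiCl at 10 min and 3.94% within genes at 40 min; leaving out the noisiest gave 0.137% for 10 against 5 min, 0.480% and 0.961% for NaCl against LiCl (5 and 20 min), and 3.80% within genes at 40 min. With 0.67 as the share for kept, 59 oligos that fell were kept. The cause of these shifts was not tested.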
